A study of Mus musculus with 6 samples.

Results

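The genes described here are 31 genes of cholesterol synthesis, uptake and efflux, chosen by mouse symbol from the 54532 Ensembl gene identifiers measured. All 31 were found, and all 31 passed the filter on low values that left 21369 genes to test. They are 18 enzymes of the synthesis pathway, 3 genes that control the transcription factor SREBP2, 4 genes of uptake and storage, and 6 genes of efflux, oxysterol production and liver X receptor (LXR) signalling. Levels are FPKM, that is fragments counted per kilobase of a gene's exons and scaled by library size, which allows genes of unequal length to be set side by side.

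RNA was sequenced from the cervical spinal cord of 6 C57BL/6 mice. The first group was 3 mice with allergic contact dermatitis (ACD), sensitised with 1% squaric acid dibutylester (SADBE), a contact allergen, at 20 µl a day on the shaved abdomen for 3 days, and after 5 days challenged with the same dose on the shaved nape for another 3 days. The second was 3 control mice given only acetone, the solvent, on the nape. Whether the control mice had SADBE on the abdomen as well cannot be read from the labels, and no age or sex is given in the sources used here. Each library is labelled as a biological replicate and is taken here as 1 mouse. The p-values set the group difference against the spread between libraries of a group, within this one experiment.

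Cells make cholesterol from acetyl-CoA through mevalonate, isoprenoid and squalene intermediates, and then through a series of sterols. SREBP2 switches on the enzymes of this route when sterols in the endoplasmic reticulum run low, and LXR switches on export when oxysterols accumulate. The central nervous system makes its own cholesterol because plasma lipoproteins do not cross the blood-brain barrier, and oligodendrocytes use much of it for myelin. Astrocytes pass cholesterol to neurons on ApoE particles.

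The promoters of these genes were searched for the motifs of SREBP, its partner NF-Y and LXR. RefSeq windows from 250 bases before to 50 after the transcription start (GRCm38.p6) were found for 26 of the 31 members and searched on both strands. The sterol regulatory element, searched as TCACNCCAC, occurred in 1 of 15 synthesis enzymes with a window, Hmgcs1, and in 1.44% of all 27025 genes with a window. A CCAAT box (CCAAT), the motif of NF-Y, which acts with SREBP at sterol-regulated promoters, occurred in 14 of the 15 synthesis enzymes, against 1 of 5 efflux, oxysterol and LXR genes and 41.06% of all genes. The promoters of Hmgcs1 and Abca1, one with both motifs and one with neither, are shown over the 250 bases before the start, 5′ to 3′ in the gene's direction, with the sterol regulatory element and each CCAAT box (ATTGG on the other strand) in capitals. Hmgcs1 has 1 sterol regulatory element, 137 bases before its start, and 3 CCAAT boxes before the start.
Hmgcs1, chr13:119690101-119690350, plus strand: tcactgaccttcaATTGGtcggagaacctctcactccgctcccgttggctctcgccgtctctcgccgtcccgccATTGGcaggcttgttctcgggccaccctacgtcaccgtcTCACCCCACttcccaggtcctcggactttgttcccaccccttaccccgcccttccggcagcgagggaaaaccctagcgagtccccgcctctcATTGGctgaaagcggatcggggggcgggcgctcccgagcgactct
Abca1, chr4:53159896-53160145, minus strand: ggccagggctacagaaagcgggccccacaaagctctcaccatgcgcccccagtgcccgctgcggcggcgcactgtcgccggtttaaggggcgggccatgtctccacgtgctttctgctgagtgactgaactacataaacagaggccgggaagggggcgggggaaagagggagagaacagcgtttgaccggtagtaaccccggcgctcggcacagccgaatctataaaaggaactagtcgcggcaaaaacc

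A CCAAT box, the nearest to the start with 10 bases on each side inside the 250, is shown for Tm7sf2, Idi1 and Mvk, which with Hmgcs1 had the largest fold changes of the synthesis enzymes, and for Npc2, the one member outside the synthesis enzymes whose ACD values all lay above the control values. The box shown lay 47 bases before the start in Tm7sf2, 45 in Idi1, 50 in Mvk and 75 in Npc2. Another box lay nearer, at 14 bases in Idi1, 14 in Mvk and 6 in Npc2. In GENCODE M21 all 250 bases before the RefSeq start lie within annotated exons in Tm7sf2 (its own and those of Vps51) and in Idi1 (105 of them its own), and 152 of the 250 do in Npc2 and 42 in Mvk.
Tm7sf2, chr19:6067883-6067907, minus strand: cccagcgctgATTGGctactgtgct
Idi1, chr13:8885551-8885575, plus strand: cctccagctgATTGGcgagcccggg
Mvk, chr5:114444209-114444233, plus strand: aatgtttgacCCAATctgtaaagga
Npc2, chr12:84773173-84773197, minus strand: aagcgtgcctATTGGgtatagcgag
The letters CACNCCA, the core of the sterol regulatory element, occurred in 7 of the 26 members with a window and in 20.56% of all genes. The LXR half-site AGGTCA occurred in 3 of 26 members and in 18.13% of all genes, and 2 half-sites in direct repeat 4 bases apart occurred in no member and in 0.01% of all genes. Only exact letters were searched, and a match describes these letters only. A missing match says nothing of inexact sites inside the window, nor of sites outside it. The exact direct repeat is so rare over all genes that its absence from the members tells nothing of LXR binding.

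Among the 31 members, 1 rose in ACD cords and none fell. The member that passed was Tm7sf2, a sterol reductase that acts just after the demethylation of lanosterol. The test was limma on log2(FPKM + 0.1) with Benjamini-Hochberg adjustment over all genes tested and a threshold of 0.05. It called 1.81% of all genes higher and 2.53% lower in ACD cords, and 1 of 31 is 3.23% of the members. At an unadjusted p under 0.05 there were 6 members. The share of all genes at this cut-off was not taken, so counts at it have no background here. In 7 members (22.6%) all ACD libraries lay above all control libraries, against 13.1% of all genes tested and 18.8% of the 12142 protein-coding genes averaging 1 FPKM or more. In 1 member (3.23%) all ACD libraries lay below, against 15.5% of all genes tested. Without control 1, a library that stood apart, 9 members (29.0%) were apart higher, against 17.8% of all genes tested. In that comparison 3 members were apart lower, against 4252 of the 21369 genes tested. A count test, voom on reads recovered from the FPKM values, called 3 members higher (Tm7sf2, Idi1 and Npc2), where it called 3.55% of all genes higher.

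**Figure D1:**
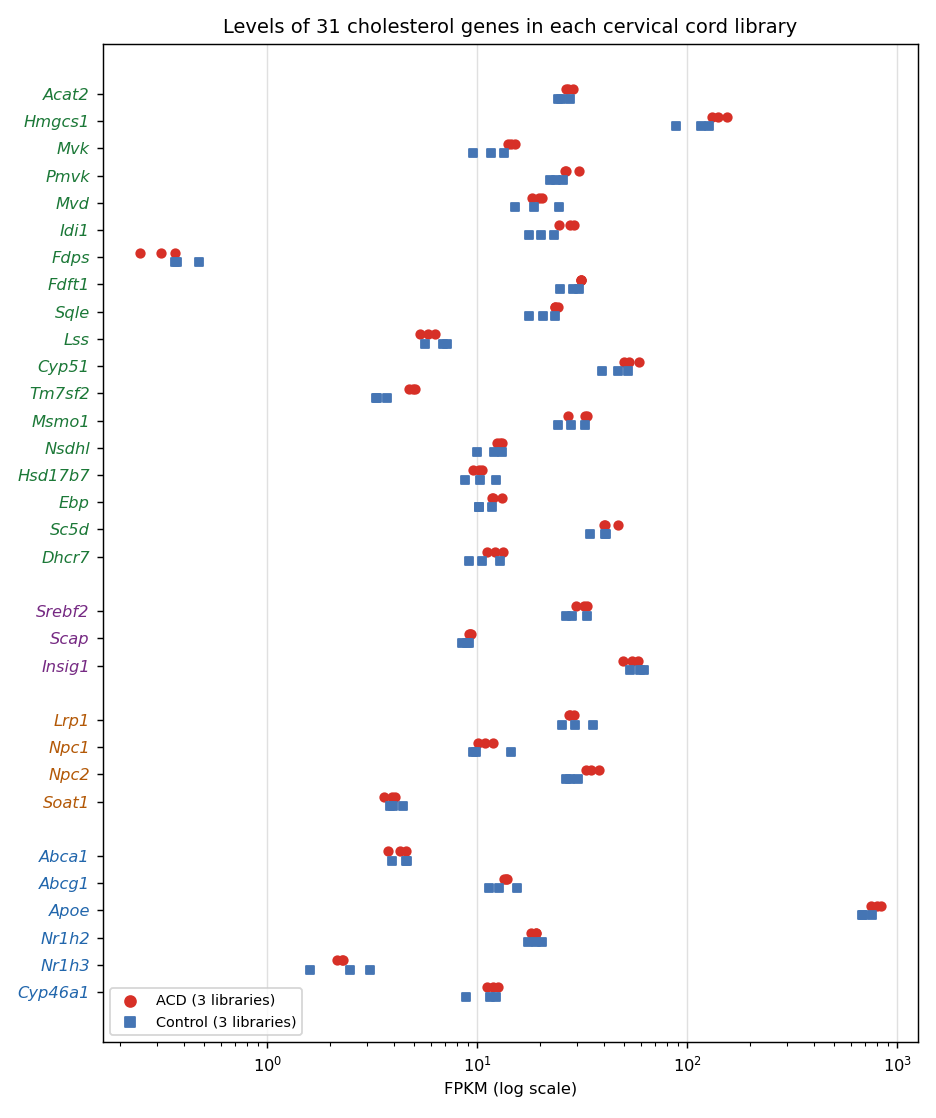
FPKM of each member in each library on a log axis, with ACD libraries as red circles above control libraries as blue squares. Gene names are green for synthesis enzymes, purple for SREBP2 control, brown for uptake and storage and blue for efflux, oxysterol and LXR genes. Apoe is the highest at 682.2 to 840.3 FPKM and Fdps the lowest at 0.2466 to 0.4731 FPKM, and the red and blue points of most genes overlap. The Fdps level is uncertain, because most of its principal transcript's sequence also occurs in other genes.

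One control library stood apart, and it bears on the synthesis results. Control 1 held 51.81 FPKM of Ucp1, the uncoupling protein of brown fat, where the other 5 libraries held at most 0.1002 FPKM. It held 68.92 FPKM of the fat cell fatty acid carrier Fabp4, against at most 0.2158 FPKM elsewhere, and 15.37 FPKM of the fat cell hormone Adipoq, against at most 0.167 FPKM. The 6 fat cell genes, a list made after these values were seen, summed to 175.1 FPKM in control 1 and to 0.1445 to 0.9462 FPKM in the other libraries. Control 1 was also the lowest of the 6 libraries for 14 of the 18 synthesis enzymes. The part of this library's make-up in the results was not tested, so values without it are given beside the synthesis results.

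Of the 18 synthesis enzymes, 15 had a fold change above 0, 3 lay below (Fdps, Lss and Hsd17b7), and 1 passed. Their median log2 fold change was 0.17, within a range of −0.31 to 0.50, beside a median of −0.01 for all genes tested and 0.045 for protein-coding genes of at least 1 FPKM, 59.5% of which lay above 0. Summed over the 18 enzymes, the level was 530.7, 493.6 and 471.6 FPKM in ACD cords, against 365.1, 460.0 and 456.4 FPKM in control cords. All ACD sums lay above all control sums, and the lowest control sum was that of control 1. FPKM summed over all genes was 311245, 313140 and 297035 in ACD libraries, against 279996, 299956 and 281560 in control libraries. No list sum in this report was scaled by these totals, so the separation was not checked against them. With TPM scaling, which sets the totals equal, the median log2 fold change was 0.074, beside −0.10 for all genes. Without control 1, 14 of 18 lay above 0, the median was 0.07, none passed, and the ratio of mean sums was 1.09 in place of 1.17.

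**Figure D2:**
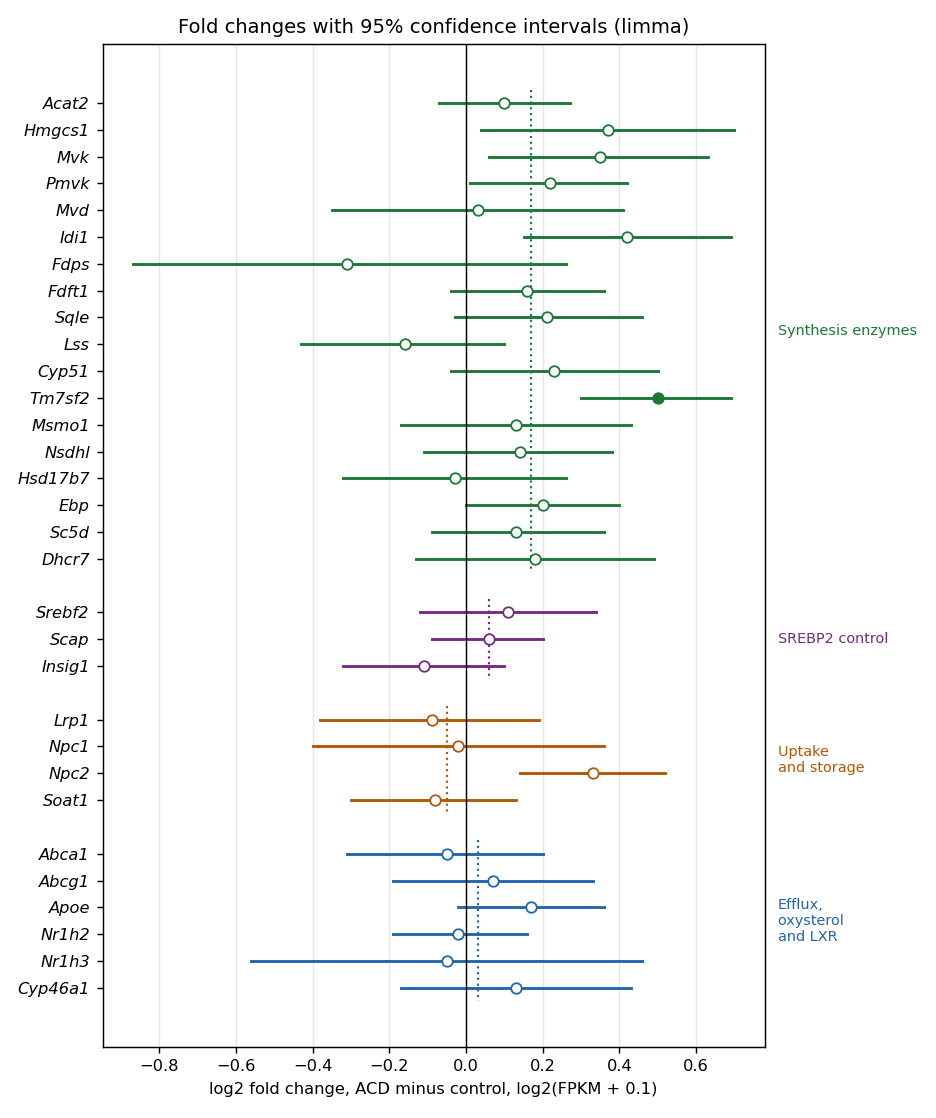
Log2 fold change (ACD minus control) of each member with its 95% confidence interval from limma, in the order of the pathway within each group. The filled point is Tm7sf2, the only member past the threshold, and dotted lines mark each group's median, which runs from −0.05 for uptake and storage to 0.17 for synthesis.

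Markers of myelinating cells were measured beside the enzymes. All 8 oligodendrocyte markers had fold changes above 0 (median 0.35) and none passed. They summed to 8793, 7862 and 7410 FPKM in ACD cords, against 4946, 7456 and 6395 FPKM in control cords, with the lowest sum again in control 1. The 6 Schwann cell markers, which are of peripheral nerve, summed to 455.6, 318.6 and 347.7 FPKM in ACD cords and to 206.8, 232.3 and 146.6 FPKM in control cords. None of these 6 passed, and without control 1 the medians of the 2 lists were 0.20 and 0.76. In whole tissue, more cells of a type and more RNA per cell cannot be told apart, and the part of these cells in the enzyme levels was not tested.

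Markers of other cells gave single calls. Astrocyte markers summed to 999.6 to 1072 FPKM in ACD cords and to 788 to 899.7 FPKM in control cords, and 1 of 8 passed, the filament protein Gfap (log2 fold change 0.48 ± 0.09, adjusted p = 0.0332). Microglia markers summed to 104.2 to 114.4 FPKM in ACD cords and 82.51 to 101.9 FPKM in control cords, and 1 of 8 passed, Tmem119 (0.53 ± 0.10, adjusted p = 0.0394). Neuron markers overlapped, at 1066 to 1153 FPKM in ACD cords and 870.2 to 1079 FPKM in control cords. Of 8 endothelial markers 5 lay below 0 (median −0.13) and the clotting factor carrier Vwf passed (1.26 ± 0.21, adjusted p = 0.0253). Their sums overlapped, at 88.25 to 128.9 FPKM in ACD cords and 96.89 to 109.6 FPKM in control cords. These 3 calls were lost with plain eBayes (adjusted p 0.0653 to 0.0946) and with the replicate block (0.0845 to 0.0949). Gfap and Tmem119 were also lost with TPM scaling and in 5 of 6 fits with a library left out, and Vwf in 4 of 6. Haemoglobin and other red blood cell genes summed to 481.4 to 772.2 FPKM in ACD cords and 100.1 to 389.2 FPKM in control cords. The part of these cells was not tested either.

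**Figure D3:**
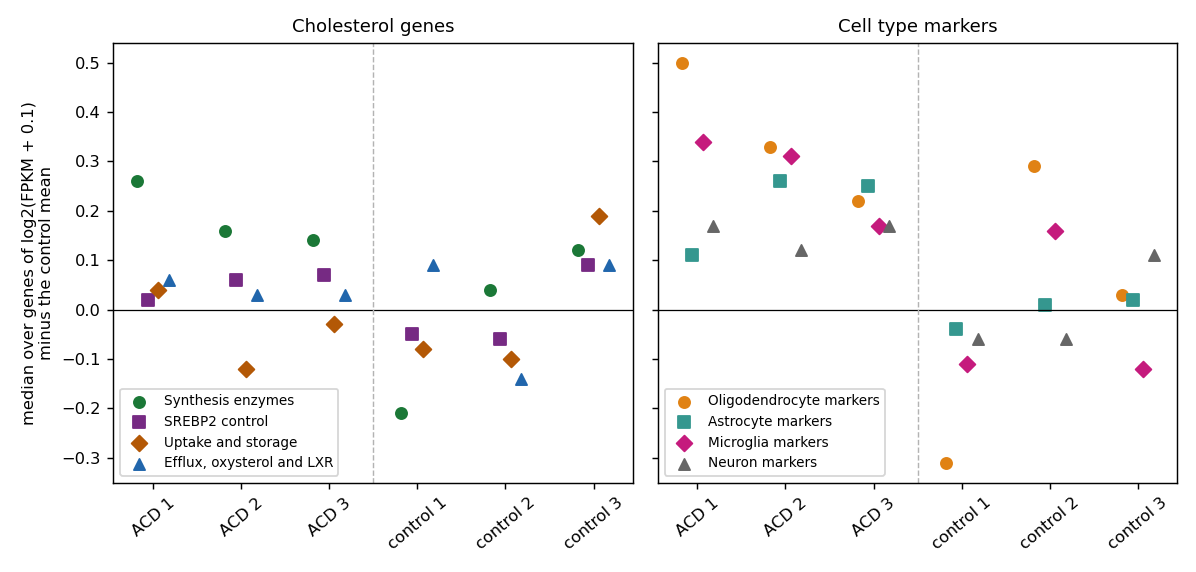
Median over the genes of a list of log2(FPKM + 0.1) minus the control mean, for each library, with ACD libraries left of the dashed line and control libraries right of it. The synthesis enzymes stand at 0.26, 0.16 and 0.14 in ACD libraries and at −0.21, 0.04 and 0.12 in control libraries, and the oligodendrocyte markers at 0.50, 0.33 and 0.22 in ACD libraries and −0.31, 0.29 and 0.03 in control libraries.

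The first steps make mevalonate and turn it into the isoprenoid building block. Hmgcs1, which makes HMG-CoA and was the most abundant of the synthesis enzymes, had 154.3, 139.8 and 131.8 FPKM in ACD cords, against 88.7, 127.6 and 116.1 FPKM in control cords. The ACD libraries were all above the control libraries, the nearest by 131.8 against 127.6 FPKM. Its log2 fold change was 0.37 ± 0.14 (SE; 95% interval 0.04 to 0.70), which missed the threshold (adjusted p = 0.177), and without control 1 it was 0.22. Of its principal transcript, 14.5% of 50-base stretches also occur in other genes, among them an overlapping antisense gene, Gm48342. Gm48342 was at 0 to 0.05202 FPKM in ACD cords and 0.1868 to 0.2550 FPKM in control cords, and without a stated strand setting the reads of such a pair cannot be told apart.

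Mvk, mevalonate kinase, had 14.55, 14.01 and 15.06 FPKM in ACD cords, against 9.569, 11.65 and 13.36 FPKM in control cords. The groups did not overlap, and the lowest value was again in control 1. Its log2 fold change was 0.35 ± 0.12 (adjusted p = 0.152), and 0.22 without control 1. Pmvk, the next kinase, had 30.59, 26.50 and 26.23 FPKM in ACD cords, against 22.15, 25.73 and 23.80 FPKM in control cords. These groups too were apart, by 26.23 against 25.73 FPKM at the nearest, with a log2 fold change of 0.22 ± 0.09 (adjusted p = 0.21), and 0.16 without control 1.

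Idi1, the isomerase that interconverts the isoprenoid units, had 27.70, 29.03 and 24.44 FPKM in ACD cords, against 17.57, 23.12 and 20.05 FPKM in control cords. All ACD values were higher. The fold change was 1.34 (log2 0.42 ± 0.11, 95% interval 0.15 to 0.69) and missed the threshold in limma (adjusted p = 0.0883), while it passed in voom (adjusted p = 0.0228) and with the trend on exon length and GC content removed (adjusted p = 0.031). Without control 1 the log2 fold change was 0.32. The gene lies at chr13:8885501-8892451 on the plus strand, and 30.5% of the 50-base stretches of its principal transcript occur in other genes, chiefly the processed pseudogene Gm13502, which had 1.228 to 2.238 FPKM in ACD cords and 1.296 to 1.416 FPKM in control cords.

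Other early enzymes did not separate the groups in this way. Acat2, a thiolase that joins acetyl-CoA units, had 26.45 to 28.64 FPKM in ACD cords and 24.21 to 27.74 FPKM in control cords, with a log2 fold change of 0.10 ± 0.07 (adjusted p = 0.484). It shares 45.9% of its principal transcript's stretches with other genes, chiefly Acat3. Mvd, the decarboxylase that ends this segment, had 18.26 to 20.33 FPKM in ACD cords, inside the 15.17 to 24.41 FPKM of control cords (0.03 ± 0.16, adjusted p = 0.941). Fdps, farnesyl diphosphate synthase, was listed at 0.2466, 0.3639 and 0.3118 FPKM in ACD cords and 0.3652, 0.4731 and 0.3700 FPKM in control cords. It was the only member with all ACD values below the controls (log2 fold change −0.31 ± 0.24, adjusted p = 0.507). This level is uncertain, because 82.0% of the stretches of its principal transcript also occur in other genes. Without control 1 the log2 fold changes were 0.06 for Acat2, −0.13 for Mvd and −0.36 for Fdps.

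The squalene steps showed small differences. Fdft1, squalene synthase, had 31.10, 31.34 and 31.36 FPKM in ACD cords, against 24.84, 28.68 and 30.61 FPKM in control cords. The ACD values were nearly equal and lay just above the highest control (log2 fold change 0.16 ± 0.08, adjusted p = 0.311). Of its principal transcript, 39.8% of stretches are shared with other genes, chiefly the overlapping Ctsb on the other strand, which had 111.4 to 118.7 FPKM in ACD cords and 92.71 to 111.8 FPKM in control cords. Sqle, the epoxidase that follows, had 23.36 to 24.15 FPKM in ACD cords and 17.60 to 23.54 FPKM in control cords (0.21 ± 0.11, adjusted p = 0.284). Lss, which closes the ring to lanosterol, had 5.339 to 6.312 FPKM in ACD cords and 5.639 to 7.179 FPKM in control cords (−0.16 ± 0.11, adjusted p = 0.443). Without control 1 the log2 fold changes were 0.08 for Fdft1, 0.11 for Sqle and −0.27 for Lss.

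Tm7sf2, of the steps after lanosterol, had 4.721, 4.954 and 5.043 FPKM in ACD cords, against 3.329, 3.310 and 3.711 FPKM in control cords. Every ACD value lay above every control value, and control 1 was not the lowest. The mean level was 4.91 ± 0.167 FPKM in ACD cords and 3.45 ± 0.227 FPKM in control cords (SD, n = 3 each), and the fold change was 1.41 (95% interval 1.23 to 1.61; log2 0.50 ± 0.08, limma adjusted p = 0.0253). Its log2 fold change lay between 0.40 and 0.58 under the other settings tried, but the adjusted p exceeded the threshold with TPM scaling (0.0717), with plain eBayes (0.0569) and when any library other than control 3 was left out (0.058 to 0.101). The gene lies at chr19:6062821-6068373 on the minus strand and overlaps Vps51, which had 0.2303 to 0.4473 FPKM in ACD cords and 0.3362 to 0.3853 FPKM in control cords.

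The other sterol steps overlapped between the groups. Cyp51, the lanosterol demethylase, had 58.92, 52.67 and 50.01 FPKM in ACD cords, against 39.24, 52.07 and 46.78 FPKM in control cords, so that the lowest ACD value lay below the highest control (log2 fold change 0.23 ± 0.12, adjusted p = 0.289). Msmo1, the methyl sterol oxidase, had 26.98 to 33.29 FPKM in ACD cords and 24.35 to 32.58 FPKM in control cords (0.13 ± 0.13, adjusted p = 0.587). Nsdhl and Hsd17b7, which with Msmo1 remove methyl groups, had log2 fold changes of 0.14 ± 0.10 and −0.03 ± 0.12. Leaving out control 1 gave log2 fold changes of 0.12 for Cyp51, 0.03 for Msmo1, 0.03 for Nsdhl and −0.15 for Hsd17b7.

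Of the last enzymes, Ebp, the sterol isomerase, had 13.08, 11.95 and 11.79 FPKM in ACD cords, against 10.16, 10.16 and 11.81 FPKM in control cords. One control value, 11.81 FPKM in control 3, lay above the lowest ACD value (log2 fold change 0.20 ± 0.08, adjusted p = 0.229). Sc5d, a desaturase, had 40.07 to 46.55 FPKM in ACD cords and 34.33 to 40.81 FPKM in control cords (0.13 ± 0.10, adjusted p = 0.468). Dhcr7, the reductase that gives cholesterol, had 11.17 to 13.31 FPKM in ACD cords and 9.136 to 12.82 FPKM in control cords (0.18 ± 0.13, adjusted p = 0.472). Leaving out control 1 gave log2 fold changes of 0.16 for Ebp, 0.05 for Sc5d and 0.06 for Dhcr7.

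The genes that control SREBP2 overlapped between the groups, and none of the 3 passed. Srebf2, which encodes SREBP2, had 29.60, 32.17 and 33.37 FPKM in ACD cords, against 28.36, 26.49 and 33.45 FPKM in control cords (log2 fold change 0.11 ± 0.10, adjusted p = 0.547). Scap, its escort out of the endoplasmic reticulum, had 9.140 to 9.306 FPKM in ACD cords and 8.495 to 9.149 FPKM in control cords (0.06 ± 0.06, adjusted p = 0.639). Insig1, which holds Scap back when sterols are high and is itself a known SREBP target, had 54.63, 58.42 and 49.52 FPKM in ACD cords, against 53.34, 59.62 and 62.15 FPKM in control cords (−0.11 ± 0.09, adjusted p = 0.528). The median of the 3 was 0.06, and 0.08 without control 1. Leaving out control 1 set the groups apart for Scap (0.08, ACD higher, limma adjusted p = 0.586) and Insig1 (−0.17, ACD lower, adjusted p = 0.356). In that comparison 17.8% of all genes tested were apart higher and 4252 of 21369 apart lower.

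Of the uptake and storage genes, none of the 4 passed and 1, Npc2, separated the groups. Npc2, the lysosomal carrier that binds cholesterol freed from lipoproteins, had 37.99, 34.95 and 32.98 FPKM in ACD cords, against 26.39, 30.16 and 27.56 FPKM in control cords. All ACD values were higher. Its log2 fold change was 0.33 ± 0.08 (95% interval 0.14 to 0.52), which missed the threshold in limma (adjusted p = 0.0665) and passed in voom (adjusted p = 0.0232) and with median centring (adjusted p = 0.0395). Without control 1 it was 0.29.

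Npc1, the membrane protein that takes cholesterol on from Npc2, had 11.83, 10.12 and 10.89 FPKM in ACD cords, against 9.497, 9.859 and 14.53 FPKM in control cords (log2 fold change −0.02 ± 0.16, adjusted p = 0.959). Here control 3 was the highest of the 6 libraries, and without it the value was 0.17, while without control 1 it was −0.13. Lrp1, a receptor for ApoE particles, had 27.21 to 29.00 FPKM in ACD cords and 25.36 to 35.75 FPKM in control cords (−0.09 ± 0.12, adjusted p = 0.698). Soat1, which esterifies cholesterol for storage, had 3.597 to 4.039 FPKM in ACD cords and 3.840 to 4.417 FPKM in control cords (−0.08 ± 0.09, adjusted p = 0.635). The median of the 4 was −0.05, −0.12 without control 1 and 0.106 without control 3.

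On the efflux side none of the 6 genes passed, none separated the groups, and their median was 0.03. Abca1, the pump that loads cholesterol onto apolipoproteins and a known LXR target, had 4.589, 4.290 and 3.751 FPKM in ACD cords, against 4.620, 3.910 and 4.590 FPKM in control cords. The groups overlapped (log2 fold change −0.05 ± 0.11, adjusted p = 0.807), and the 95% interval ran from −0.31 to 0.20. Abcg1, the other pump, had 13.75, 13.46 and 13.83 FPKM in ACD cords, inside the 12.69, 11.38 and 15.43 FPKM of control cords (0.07 ± 0.11, adjusted p = 0.764).

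Apoe, the main lipoprotein of the nervous system, was the most abundant member, with 749.7, 804.4 and 840.3 FPKM in ACD cords, against 757.7, 682.2 and 690.1 FPKM in control cords. One control value, that of control 1, lay above the lowest ACD value (log2 fold change 0.17 ± 0.08, adjusted p = 0.263). Without control 1 the groups were apart and the log2 fold change was 0.22 (adjusted p = 0.235). Of the LXR genes, Nr1h2 had 18.06 to 19.04 FPKM in ACD cords and 17.42 to 20.25 FPKM in control cords (−0.02 ± 0.07, adjusted p = 0.926). Nr1h3 had 2.141 to 2.292 FPKM in ACD cords, inside the 1.605 to 3.079 FPKM of control cords (−0.05 ± 0.22, adjusted p = 0.918), and its log2 fold change was 0.15 without control 1. Cyp46a1, the neuronal hydroxylase that turns cholesterol into an oxysterol for export, had 11.10 to 12.62 FPKM in ACD cords and 8.856 to 12.28 FPKM in control cords (0.13 ± 0.13, adjusted p = 0.577).

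Synthesis and efflux were set against each other. The median log2 fold change was 0.14 for the 21 synthesis and SREBP2 control genes, 1 of which passed, and −0.02 for the 10 uptake, storage, efflux, oxysterol and LXR genes, none of which passed. For the 18 synthesis enzymes alone the median was 0.17, and for the 6 efflux, oxysterol and LXR genes alone 0.03. Without control 1 the medians of these smaller groups were 0.07 and 0.10, so their order turned. Without control 1 the medians were 0.08 for SREBP2 control and −0.12 for uptake and storage. Medians of the 21 and the 10 genes without control 1 were not taken, so the turn was shown for the smaller groups only. With all 6 libraries the order of the synthesis enzymes and the efflux, oxysterol and LXR genes held under each scaling tried, as shown in the plot of medians by setting.

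**Figure D4:**
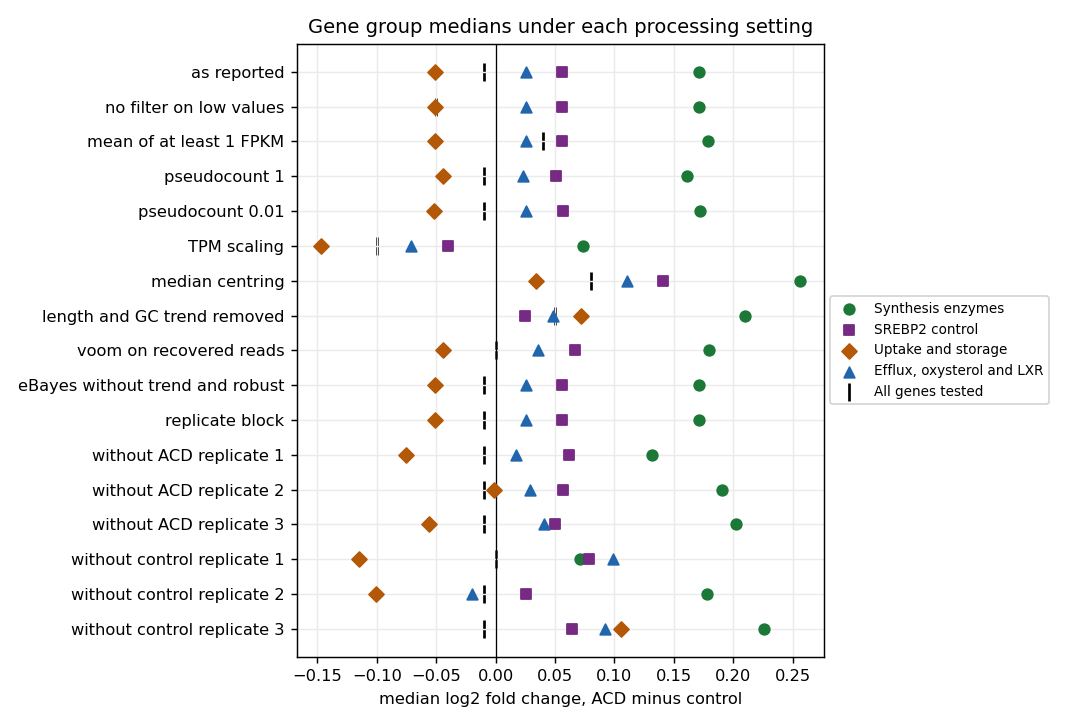
Median log2 fold change (ACD minus control) of each gene group under each processing setting, with the median of all genes tested as a black tick. The synthesis median lies between 0.071 and 0.256, above the median of all genes in each setting, and falls below the efflux median only where control 1 is left out.

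The wider pathway, in lists chosen with earlier results of these data known, held 1 gene that rose, Lcat, and 1 that fell, Srebf1. None of the 14 other sterol and isoprenoid synthesis genes tested passed (median 0.07). Of 12 other SREBP control genes, 1 fell and none rose. It was Srebf1, which encodes SREBP1, with 10.45, 11.11 and 11.49 FPKM in ACD cords, against 14.34, 13.18 and 14.15 FPKM in control cords (log2 fold change −0.33 ± 0.07, adjusted p = 0.045). All ACD values were lower, and the call was lost without any one of the 6 libraries (adjusted p 0.0566 to 0.145). It was also lost with no filter, pseudocount 1, median centring, plain eBayes or the block (adjusted p 0.0503 to 0.109).

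Of 18 other efflux, LXR target and oxysterol genes tested, 1 rose and none fell. It was Lcat, which esterifies cholesterol on lipoproteins, with 24.10, 21.57 and 26.72 FPKM in ACD cords, against 15.95, 15.48 and 19.03 FPKM in control cords (log2 fold change 0.52 ± 0.11, adjusted p = 0.0483). All ACD values were higher. The call was lost when any library other than control 3 was left out (adjusted p 0.0748 to 0.142). It was also lost with no filter, pseudocount 1, TPM scaling, plain eBayes or the block (adjusted p 0.0506 to 0.121).

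None of 11 other lipoprotein uptake genes tested passed (median 0.08). Their smallest p was that of Lrp8, an ApoE and reelin receptor, with 4.365, 4.270 and 4.809 FPKM in ACD cords, against 5.819, 5.277 and 5.720 FPKM in control cords (log2 fold change −0.32 ± 0.08, adjusted p = 0.0793). None of 16 sterol transfer genes passed (median −0.04), with the smallest p in Stard3, a late endosomal sterol carrier (0.33 ± 0.07, adjusted p = 0.0568). None of 12 fatty acid synthesis genes, known SREBP1 targets, passed (median 0.07), with the smallest p in Me1, the malic enzyme (0.28 ± 0.09, adjusted p = 0.135). The list's lowest fold change, −0.65 for Thrsp, rested on control 1, with 56.49 FPKM against 13.51 to 16.22 FPKM in the other 5 libraries.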

How the data were processed

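The authors deposited FPKM values, 1 table per library with 54532 Ensembl gene identifiers. The submitters' processing notes name the build mm10 and the tools DESeq2 1.16.1, featureCounts 1.5.0-p3 and HISAT2 2.0.5. No annotation release, strand setting or treatment of shared reads is given in the sources used here. Values of low genes are whole multiples of 1 read at the exon length of GENCODE M21 (96.7 to 97.0% whole within 0.05). This gave each library's FPKM denominator, 16916602 to 20245576 reads, and the read counts used by voom with TMM scaling. The recovered reads summed to 1.04 to 1.068 times that denominator in ACD libraries and 0.976 to 1.027 times in control libraries.

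Groups came from the sample descriptions. Tests were run in R 4.3.3 with limma 3.58.1 (lmFit, eBayes with trend and robust) on log2(FPKM + 0.1) for genes averaging 0.1 FPKM or more, two-sided, with Benjamini-Hochberg adjustment over 21369 genes and a threshold of 0.05. The log2 scale with 0.1 added understates changes of low genes. Values after ± are SE for log2 fold changes. The fit was also run on simulated data that had the same dispersion for every gene and no library that stood apart. These data differ in both, so that run is not used as support here. Every member is named, with the passing or smallest-p gene of each other list, passing markers and overlapping partners. One gene that this rule would name is not reported here. Members and lists were chosen with earlier results of these data known. Shared sequence was counted as 50-base stretches of GENCODE transcripts. Across genes, libraries correlated at 0.972 to 0.974 within ACD and 0.947 to 0.955 within control. Alternatives covered filters, pseudocounts, scaling, a length and GC trend, voom, plain eBayes, a replicate block and leaving out each library.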

Additional observations from a re-analysis of the deposited data

How the results depend on the processing

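The fold changes of single members changed sign 28 times among the alternatives, each time in a member that had not passed. With TPM scaling the log2 fold change was −0.07 for Mvd, −0.04 for Scap and −0.03 for Abcg1. With median centring it was 0.054 for Hsd17b7, 0.065 for Npc1, 0.003 for Soat1, 0.031 for Abca1, 0.070 for Nr1h2 and 0.037 for Nr1h3. With the length and GC trend removed it was 0.042 for Hsd17b7, 0.006 for Lrp1, 0.103 for Npc1, 0.041 for Soat1 and 0.036 for Abca1. Leaving out 1 library at a time gave −0.135 to 0.207 for Mvd, −0.152 to 0.091 for Hsd17b7, −0.208 to 0.039 for Lrp1, −0.131 to 0.173 for Npc1, −0.131 to 0.024 for Abca1, −0.032 to 0.185 for Abcg1, −0.074 to 0.034 for Nr1h2, −0.298 to 0.151 for Nr1h3 and −0.007 to 0.226 for Cyp46a1.

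The number of members called higher was 1 as reported, 0 with TPM scaling, plain eBayes or the block, 2 with median centring or the length and GC trend removed, 3 with voom, and 0 to 1 with 1 library left out. The number of all genes called higher moved as well. It was 386 of 21369 as reported, 208 with TPM scaling, 96 with plain eBayes and 86 with the block. It was 921 with median centring, 908 with the trend removed, 757 with voom, and 63 to 314 with 1 library left out. No member was called lower in any setting, where 95 to 943 of all genes tested were. At an unadjusted p under 0.05 limma held 0 lower members, a count for which the share of all genes was not taken. Of synthesis and SREBP2 control genes, 2 were called with voom or the trend removed, 0 with TPM scaling, plain eBayes or the block, and 0 to 1 with a library left out. Of the uptake and efflux side, 1 was called with median centring or voom and 0 otherwise.

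The SREBP2 control median was −0.04 with TPM scaling and 0.141 with median centring, and the efflux median −0.071 with TPM scaling. The uptake median changed sign, to 0.034 with median centring, 0.072 with the trend removed and 0.106 without control 3. With a library left out the medians ran from 0.071 to 0.226 for synthesis, 0.026 to 0.079 for SREBP2 control, −0.115 to 0.106 for uptake and −0.02 to 0.099 for efflux. TPM scaling moved the median of all genes to −0.10, from which the synthesis median of 0.074 is to be read. The causes of these shifts were not tested.

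Over all genes, 927 passed (41.6% higher), 556 with no filter, 1401 with median centring (65.7% higher), 1397 with the trend removed (65.0% higher), 1700 with voom, 420 with plain eBayes (22.9% higher) and 180 to 627 with a library left out. With TPM scaling 912 passed, 22.8% of them higher, and with a minimum of 1 FPKM 988, 53.1% higher. Libraries with the same replicate number had correlations of deviations of −0.028, 0.015 and 0.003, and those with other numbers −0.032 to 0.026. With 3 libraries in each group these correlations cannot tell whether same-numbered libraries were paired. A replicate block left 181 genes and no member, with an adjusted p of 0.0717 for Tm7sf2. Fdps had the fewest reads of the members, at a mean of 27.2 a library. With 82.0% of the stretches of its principal transcript also in other genes, the part of shared reads in this count was not tested.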

Other observations

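The members varied less between ACD mice than between control mice. The control spread includes control 1, the lowest control for 16 of the 18 synthesis enzymes, and its part in this difference was not tested. The coefficient of variation over 3 libraries was smaller in ACD cords for 26 of 31 members (83.9%), with a median of 5.90% in ACD cords and 13.7% in control cords. Among the 12142 protein-coding genes averaging 1 FPKM or more it was smaller in ACD cords for 69.4%, with medians of 6.08% and 9.28% in ACD and control cords. Fdft1 had 0.473% in ACD cords and 10.5% in control cords, and Abcg1 had 1.44% in ACD cords and 15.7% in control cords.

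The largest increase in the wider pathway, noticed after its values were seen, was that of Ch25h, the hydroxylase that makes an oxysterol with roles in immunity. It had 1.623, 2.232 and 3.523 FPKM in ACD cords, against 1.095, 0.2790 and 0.5126 FPKM in control cords. All ACD values were higher, and the fold change of 3.74 (95% interval 1.80 to 7.78) missed the threshold (limma adjusted p = 0.0622). Macrophage and neutrophil markers summed to 81.88 to 103.3 FPKM in ACD cords and 20.87 to 85.19 FPKM in control cords, and their part in the Ch25h level was not tested. Abca7, a transporter related to Abca1, had 5.157, 4.477 and 4.842 FPKM in ACD cords, against 5.962, 6.264 and 7.225 FPKM in control cords. Its groups were apart in the other direction (log2 fold change −0.42 ± 0.10, adjusted p = 0.0622).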
